A study of Chrysanthemum x morifolium with 40 samples.

Results

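Roots of the chrysanthemum cultivars EWT and CK were compared before any waterlogging. The comparison rests on the 8 libraries labelled with 0 h, 4 from EWT and 4 from CK, out of 40 libraries in 10 groups. The other 32 libraries are from flooded or reoxygenated roots of the same cultivars, and they were used for the spread between replicates and to see which differences were also present later. All 8 libraries are root RNA of untreated seedlings aged 8 weeks of Chrysanthemum × morifolium 'Hangju', a tea chrysanthemum. CK is 'zaoxiaoyangju', the common cultivar that the study used as its waterlogging-sensitive control, and EWT is the tolerant one. Both were propagated from cuttings, so each cultivar is 1 clonal background and the replicates do not sample genetic variation within it. The labels and the methods of the study differ in the day length and temperature of the greenhouse, and no source used here gives the time of day of the harvest.

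A root that is not flooded takes up nitrate, phosphate, potassium and iron through membrane carriers, moves water through aquaporins, and burns sugar with the oxygen of the soil air. When oxygen runs out, plants stabilise group VII ethylene response factors, a set of transcription factors, and turn to glycolysis and fermentation. Many transcription factors of the ERF, ZAT, WRKY and NAC families, and calmodulin-like calcium sensors, are known for rapid induction by touch, wounding, cold or hypoxia. Cultivated chrysanthemum is a polyploid with many near-identical gene copies. Gene names below are the authors' matches to known proteins of Arabidopsis thaliana and other species, and the roles given are those of the matched proteins.

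Expression was deposited as FPKM, fragments scaled to gene length and library size. The 0 h libraries held 5361802 to 7588620 fragments on genes in CK and 7925058 to 9929777 in EWT, so the EWT libraries were deeper and low genes are better seen in them. Correlations of log2(FPKM + 0.1) ran from 0.907 to 0.930 within a cultivar and from 0.665 to 0.721 between cultivars over the same genes, and no pair of replicates agreed within counting noise. Marker genes of photosynthetic tissue summed to 99.96 to 239 FPKM in CK and 129.8 to 178 FPKM in EWT, with 10 higher and 6 lower of 111 tested members (9.01% and 5.41%). Xylem vessel markers summed to 164 to 202 FPKM in CK and 93.2 to 149 FPKM in EWT, with 5 higher and 8 lower of 38 tested (13.2% and 21.1%). Phloem markers gave 1 higher and 2 lower of 26, root tip and cap markers 1 higher and 1 lower of 10, and the 2 tested root hair markers were not called. Among all tested genes with a protein match, 14.3% were called higher and 12.9% lower. The xylem sums did not overlap, and 7 of the 79 xylem genes in the table were at 0 in all 8 libraries. In bulk roots, fewer cells of a type and less RNA per cell cannot be told apart.

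Before flooding the root transcriptomes of the cultivars were far apart. A gene is called higher or lower in EWT here when its p-value, adjusted over all 89517 tested genes by limma with the Benjamini-Hochberg method, was at most 0.05 and its fold change on the log2(FPKM + 0.1) scale was at least 2. By that rule 14657 genes were higher in EWT and 12167 were lower, which is 30.0% of the tested genes, 16.4% in the first direction and 13.6% in the second. Of the called genes, 16659 differed by at least 4-fold and 4127 by at least 16-fold. In 87.8% of the called genes the 4 libraries of one cultivar all lay above the 4 of the other. For such a gene the two-sided exact permutation test of 4 against 4 gives 0.0286, the smallest p it can give. The calls use the same values at 0 h, so this share is a description and adds no separate support. Among the 55257 genes with at least 50 fragments and a mean of at least 1 FPKM over the 8 libraries, 28.9% were called. The median difference over all tested genes was 0.09 on the log2 scale, EWT minus CK. Genes with a protein match, the ones that gene lists below are drawn from, were called higher in 14.3% and lower in 12.9% of cases. Genes without a match were called higher in 19.9% and lower in 14.7%.

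**Figure D1:**
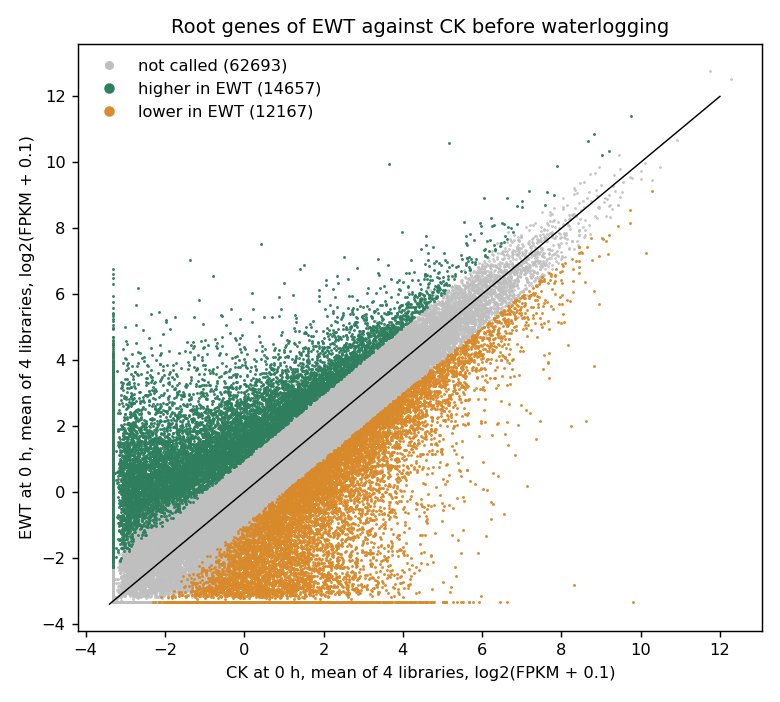
Each point is a tested gene, placed by its mean log2(FPKM + 0.1) over the 4 CK libraries (x axis) and the 4 EWT libraries (y axis) at 0 h, with the line of equal levels. The 14657 genes called higher in EWT lie above the line and the 12167 called lower lie below it, and the straight edges on the left and at the bottom are genes without a fragment in all 4 libraries of a cultivar.

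The largest fold changes ran to near absence in 1 cultivar. In every gene whose 8 library values are given here, the libraries of the cultivars did not overlap. Many of these genes were picked for having no overlap, so that follows from the pick. Histone H2B.7 (evm_TU_scaffold_451_167, chromosome 8, bases 257850806 to 257851147), a core histone that packs DNA, had 327, 266, 359 and 324 FPKM in the CK libraries and 0, 0, 0.294 and 0 FPKM in the EWT libraries. Every EWT library was near 0 there, so the size of the difference follows the pseudocount, with log2 differences of -8.22, -11.14 and -13.72 at pseudocounts of 1, 0.1 and 0.01 (adjusted p = 9.9e-16 at 0.1, and 3.7e-06 there when only the 8 libraries at 0 h were fitted). Tetraketide alpha-pyrone reductase 1 (evm_TU_scaffold_2310_31), which in Arabidopsis makes a precursor of the pollen wall, had 0, 0, 0 and 0 FPKM in the CK libraries and 125, 94.9, 78.3 and 94.4 FPKM in the EWT libraries. All CK libraries were at 0, so the EWT mean was at least 1150.2-fold higher than the limit that 3 fragments over the CK group set. A copy of the immune receptor TMV resistance protein N (evm_TU_scaffold_11774_5), known from tobacco, had 0, 0, 0 and 0 FPKM in the CK libraries and 65.4, 59.2, 64.5 and 55.5 FPKM in the EWT libraries, which is at least 349-fold higher by the same limit. A glutathione S-transferase APIC copy (evm_TU_scaffold_1654_282), a detoxifying enzyme, went the other way with 58.7, 55.9, 48.8 and 54.7 FPKM in the CK libraries and 0, 0, 0 and 0 FPKM in the EWT libraries, at least 343-fold lower in EWT. These last 3 copies were thus detected in only 1 cultivar at 0 h. The ALTERED XYLOGLUCAN 4-like gene (evm_TU_scaffold_7588_236), whose protein acetylates a cell wall polymer, had 35.6, 73.1, 45.3 and 35.9 FPKM in the CK libraries and 0, 0, 0 and 0 FPKM in the EWT libraries and was at least 709.9-fold lower in EWT. Among abundant genes, Putative germin-like protein 2-2 (evm_TU_scaffold_3500_37), a secreted cell wall protein of the cupin fold, had 6.50, 7.64, 22.6 and 20.8 FPKM in the CK libraries and 1235, 1089, 843 and 867 FPKM in the EWT libraries. The lowest EWT value there lay above the highest CK value, and the log2 difference was 6.32 ± 0.64 (SE, adjusted p = 5.1e-10). A serine protease inhibitor of the Glu S.griseus type (evm_TU_scaffold_268_169), a defence protein first described in bitter gourd, had 505, 424, 255 and 430.3 FPKM in the CK libraries and 9.19, 1.76, 4.31 and 5.05 FPKM in the EWT libraries with a log2 difference of -6.46 ± 1.09 (SE, adjusted p = 9.8e-06).

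Copies that carry 1 protein name often differed in opposite directions. Of 9660 protein names with at least 2 tested genes, 6243 had a called gene and 1995 had copies called in both directions. When FPKM was summed over all genes of a name and tested in the same way, 856 of 12127 names were higher in EWT and 671 lower, 12.6% in all, 7.06% and 5.53% by direction. Only 13.3% of the called genes of such multi-copy names had a sum called the same way. The median size of the log2 difference was 2.07 for these genes and 0.41 for the sums of their names. No source used here says how fragments shared by near-identical copies were counted, so the level of a single copy is uncertain. Sums are given beside single copies for some names, and other single copies are given without a sum.

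The vacuolar water channel TIP1-1 is an example. Its copy evm_TU_scaffold_1557_372 had 428, 518, 424 and 439 FPKM in the CK libraries and 24.2, 7.21, 12.1 and 17.6 FPKM in the EWT libraries, a log2 difference of -5.01 ± 0.33 (SE, adjusted p = 1.4e-14). Another copy, evm_TU_scaffold_4532_3, had 41.5, 71.9, 40.7 and 43.1 FPKM in the CK libraries and 354, 127, 213 and 232 FPKM in the EWT libraries, a log2 difference of 2.18 ± 0.47 (SE, adjusted p = 0.00035). These copies moved apart with no overlap between the cultivars, while the sum over 10 TIP1-1 genes was 1906 ± 188 FPKM in CK and 1613 ± 516 FPKM in EWT, a difference of -0.29 ± 0.28 (SE, adjusted p = 0.52) that was not called. Calmodulin-1/11/16, the calcium sensor, had 1 higher and 2 lower of 11 tested copies and a sum of 2156 ± 234 FPKM in CK and 1522 ± 222 FPKM in EWT. Elongation factor 1-alpha, which delivers tRNA to the ribosome, had 4 higher and 4 lower of 23 and a sum of 2246 ± 347 FPKM in CK and 2516 ± 588 FPKM in EWT, a difference of 0.14 ± 0.21 (SE, adjusted p = 0.69). Kirola, a latex-type protein named from kiwifruit, had 2 higher and 5 lower of 15, and DC2.15, a proline-rich cell wall protein of carrot, had 1 higher and 4 lower of 29, with neither sum called. The clock protein GIGANTEA also had called copies in both directions. Its copy evm_TU_scaffold_767_17 had 0, 0, 0.519 and 0.382 FPKM in the CK libraries and 11.3, 13.1, 15.6 and 5.41 FPKM in the EWT libraries. Its copy evm_TU_scaffold_322_217 was the reverse, with 20.5, 24.9, 24.2 and 24.1 FPKM in the CK libraries and 4.16, 3.58, 3.52 and 4.54 FPKM in the EWT libraries. The sum over GIGANTEA genes was 217 ± 13.5 FPKM in CK and 189.6 ± 20.5 FPKM in EWT, a difference of -0.20 ± 0.11 (SE, adjusted p = 0.21). Clock genes as a list gave 8 higher and 11 lower of 86, with a median difference of 0.01.

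Some genes had fragments in 1 cultivar only. Without a fragment in any of the 20 CK libraries, 786 genes had at least 1 FPKM in each EWT library at 0 h. At their mean EWT level, a median of 235 fragments would have been counted over the CK libraries. The reverse, no fragment in 20 EWT libraries and at least 1 FPKM in each CK library at 0 h, held for 116 genes, against a median of 117 expected fragments. A protein match was given for 271 of the first kind and 39 of the second. Outside the gene models of the genome were 410 of the first kind and 68 of the second, against 39791 of all 178540 genes deposited. Over the 4 libraries at 0 h alone, 1258 genes were without a fragment in CK and 970 in EWT by the same minimum, and the CK libraries were the shallower ones. The most abundant matched gene of the first kind besides the TMV resistance protein N copy was a copy of the deubiquitinating enzyme Ubiquitin C-terminal hydrolase 12 (evm_TU_scaffold_113_9), with 0, 0, 0 and 0 FPKM in the CK libraries and 30.6, 27.9, 52.7 and 58.3 FPKM in the EWT libraries. Next came a copy of phosphoenolpyruvate carboxylase (evm_TU_scaffold_1337_179), which fixes bicarbonate into oxaloacetate, with 0, 0, 0 and 0 FPKM in the CK libraries and 23.7, 35.2, 43.2 and 55.1 FPKM in the EWT libraries. Copies of the copper pump PAA1 (evm_TU_scaffold_1000_247, mean 28.2 FPKM in EWT), of ent-copalyl diphosphate synthase (evm_TU_scaffold_104_31, 23.6 FPKM), the first committed enzyme of gibberellin synthesis, and of cellulose synthase 6 (evm_TU_scaffold_6100_129, 21.02 FPKM) followed. The most abundant matched gene of the second kind, a copy of the mitochondrial import subunit TOM9-2 (evm_TU_scaffold_6299_25), had a mean of 9.27 FPKM in CK and was picked after the values were seen.

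Most genes called at 0 h were called in the same direction at some later time. The later comparisons share no library with the one at 0 h. Of the genes higher in EWT at 0 h, 6926 (47.3%) were also called higher at all 4 later times, which are 3 h, 12 h and 24 h of flooding and 3 h of reoxygenation after 24 h, and 1934 (13.2%) at none of these. Of the genes lower in EWT, 5676 (46.7%) and 1853 (15.2%) were so. Over all tested genes, the shares called higher and lower were 17.2% and 15.8% at 3 h, 21.6% and 16.6% at 12 h, 21.5% and 17.4% at 24 h, and 16.9% and 13.3% after reoxygenation. A direct test of the 0 h difference against the mean of the 4 later ones called 4.2% of genes as shifted toward EWT at 0 h and 4.89% as shifted toward CK. Among genes called at 0 h, 1373 higher ones and 1496 lower ones passed this test in the same direction.

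Called genes were unevenly spread along the chromosomes. The 2171 windows of 40 consecutive tested genes held a median of 6 genes higher in EWT and 4 lower. In the window on chromosome 24 from base 120232034 to base 124812632, 29 of 40 genes were higher in EWT and 0 lower, with a median log2 difference of 2.76. In the window on chromosome 9 from base 13844884 to base 16559198, the counts were 28 and 0. The window with most genes lower in EWT lay on chromosome 14 from base 200393677 to base 202153502, with 30 lower, 1 higher and a median of -2.32. The same windows were unequal at every later time, with 29, 31, 30 and 30 of 40 genes higher on chromosome 24 and 31, 31, 29 and 28 of 40 lower on chromosome 14 at 3 h, 12 h, 24 h and after reoxygenation. These windows were picked as the extremes of the genome, so their counts are descriptions. Positions are those of the deposited table, and no source used here names its genome build.

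Genes for the uptake of nutrients were higher in EWT more often than lower. Over the mineral nutrient transporters, 121 of 511 tested members were higher in EWT and 48 lower, or 23.7% and 9.39% against 14.3% and 12.9% of all genes with a match, and the median log2 difference was 0.34. The narrower lists that follow were drawn up after the values at 0 h had been seen. Within iron and manganese uptake, 42 of 114 tested members were higher in EWT and 9 lower, with a median of 0.99, the highest of these lists. Phosphate transporters gave 14 higher and 4 lower of 46 and a median of 0.62, potassium transporters and channels 19 higher and 6 lower of 103 and 0.31, and the NRT1/PTR family 33 higher and 13 lower of 146 and 0.25. Nitrate and ammonium uptake and assimilation gave 32 higher and 15 lower of 119 and a median of 0.37, with a summed level of 2338 ± 199 FPKM in CK and 4873 ± 822 FPKM in EWT.

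**Figure D2:**
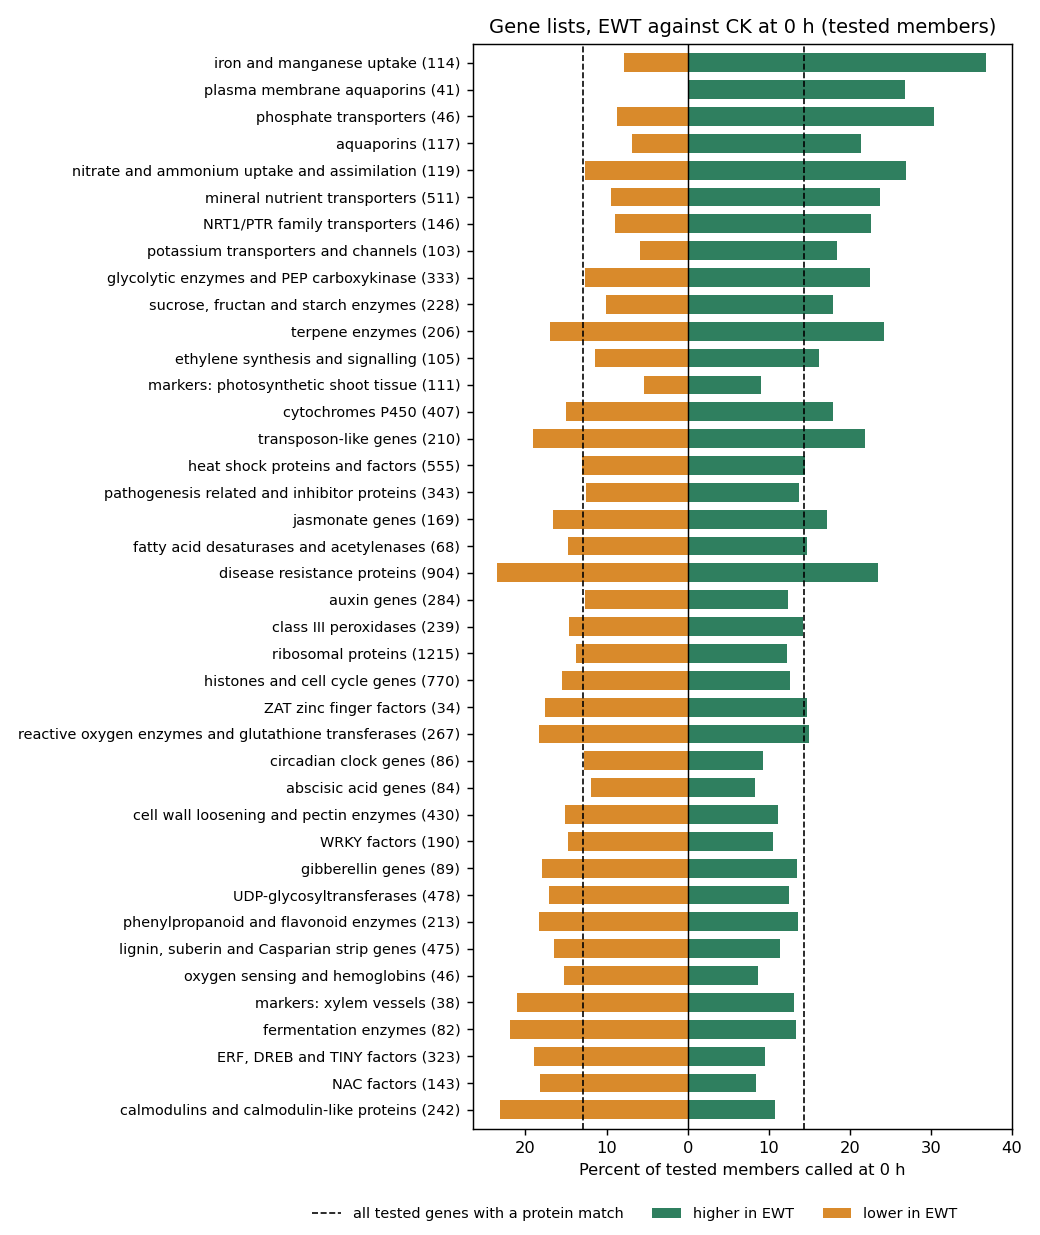
Bars give the percent of the tested members of each gene list called higher (right, green) or lower (left, orange) in EWT at 0 h, with the number of tested members in parentheses, for lists of at least 30 tested members. Dashed lines mark the shares among all tested genes with a protein match, 14.3% and 12.9%. Iron and manganese uptake reaches 36.8% on the right, and calmodulins 23.1% on the left.

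Several genes of nitrate uptake and amide synthesis were higher in EWT, while others were lower or not called. The named copies of nitrate transporters 3.1 and 2.1 and of asparagine synthetase were chosen after their values were seen. The sums of these names and of NRT1/PTR FAMILY 6.3 and 6.4 were chosen likewise. No gene is named here for the steps between nitrate uptake and glutamine synthetase. High-affinity nitrate transporter 3.1 (evm_TU_scaffold_1233_12), the partner protein that the high-affinity carriers need at the membrane, had 79.1, 62.7, 68.7 and 88.5 FPKM in the CK libraries and 373, 357, 289 and 269 FPKM in the EWT libraries. The log2 difference was 2.11 ± 0.24 (SE, adjusted p = 7.6e-09), and it was 1.82 at 3 h, 1.48 at 12 h, 1.44 at 24 h and 1.51 after reoxygenation. The sum over its named genes was 164 ± 28.4 FPKM in CK and 431 ± 71.6 FPKM in EWT, although 2 higher and 3 lower of 10 tested copies were called. High-affinity nitrate transporter 2.1 (evm_TU_scaffold_94_53), the carrier itself, had 5.64, 5.03, 6.08 and 6.46 FPKM in the CK libraries and 37.8, 28.4, 32.98 and 24.8 FPKM in the EWT libraries and a log2 difference of 2.39 ± 0.63 (SE, adjusted p = 0.0028). With a pseudocount of 0.01 its adjusted p was 0.097, and the sum over the name was 78.9 ± 8.39 FPKM in CK and 134 ± 17.6 FPKM in EWT, a difference of 0.76 ± 0.33 (SE, adjusted p = 0.098) that was not called. A copy of NRT1/PTR FAMILY 6.3 (evm_TU_scaffold_1409_418), the nitrate carrier and sensor known as NRT1.1 or CHL1, had 57.95, 40.5, 47.9 and 49.2 FPKM in the CK libraries and 156, 112, 128 and 99.8 FPKM in the EWT libraries with a log2 difference of 1.33 ± 0.32 (SE, adjusted p = 0.00099). Its name summed to 154 ± 20.6 FPKM in CK and 346 ± 51.3 FPKM in EWT, a difference of 1.17 ± 0.32 (SE, adjusted p = 0.0063). No CK library of these single copies reached the lowest EWT library. NRT1/PTR FAMILY 6.4 was lower instead, with a sum of 190.4 ± 33.4 FPKM in CK and 68.2 ± 22.1 FPKM in EWT and a difference of -1.52 ± 0.23 (SE, adjusted p = 3.9e-06).

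Glutamine synthetase, which fixes ammonium into glutamine, had the most abundant copy called higher in this list. That copy, evm_TU_scaffold_938_145, had 260.02, 209.5, 232 and 252 FPKM in the CK libraries and 1176, 1048, 947 and 699.98 FPKM in the EWT libraries, a log2 difference of 2.00 ± 0.21 (SE, adjusted p = 8.2e-10), and the later differences were 0.99 at 3 h, 1.52 at 12 h, 1.88 at 24 h and 0.64 after reoxygenation. A copy called the other way, evm_TU_scaffold_133_58, had 64.2, 63.8, 71.1 and 66.1 FPKM in the CK libraries and 9.02, 8.62, 9.68 and 6.51 FPKM in the EWT libraries. The sum under the name glutamine synthetase was 1205, 960.5, 1051 and 1176 FPKM in the CK libraries and 2799.6, 2544, 2279 and 1581 FPKM in the EWT libraries, without overlap, a log2 difference of 1.04 ± 0.22 (SE, adjusted p = 0.0004). Asparagine synthetase, which makes the amide that many roots export, had a copy (evm_TU_scaffold_4841_45) with 27.6, 25.1, 28.9 and 26.8 FPKM in the CK libraries and 182, 194, 158 and 158 FPKM in the EWT libraries and a log2 difference of 2.67 ± 0.25 (SE, adjusted p = 1e-10). Its sum was 96.7 ± 8.21 FPKM in CK and 263 ± 19.1 FPKM in EWT, a difference of 1.44 ± 0.24 (SE, adjusted p = 1.9e-05).

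Of the 114 tested members of the iron list, 42 were higher in EWT at 0 h, 9 were lower and the others were not called. The list was drawn up after these values were seen. Nramp5 (evm_TU_scaffold_4047_22, chromosome 16, bases 99525067 to 99528543), which in rice takes up manganese and iron, had 124, 82.9, 93.9 and 99.9 FPKM in the CK libraries and 384, 619, 488 and 462 FPKM in the EWT libraries. The lowest EWT library lay above the highest CK library, and the log2 difference was 2.28 ± 0.52 (SE, adjusted p = 0.00064). At the later times it was 0.80 at 3 h, 0.73 at 12 h, 0.95 at 24 h and 0.57 after reoxygenation, none of them called, and the shift of 1.52 ± 0.58 (SE, adjusted p = 0.097) did not pass the direct test. A BRUTUS-like zinc finger gene (evm_TU_scaffold_5768_208), whose Arabidopsis relatives are ubiquitin ligases that restrain iron uptake, had 26.2, 22.5, 22.3 and 23.4 FPKM in the CK libraries and 101, 149, 127 and 107 FPKM in the EWT libraries and a log2 difference of 2.34 ± 0.23 (SE, adjusted p = 3.6e-10). Tested against the later times, its difference at 0 h was larger by 1.78 ± 0.26 (SE, adjusted p = 9.4e-06). Nramp3 (evm_TU_scaffold_9340_589), which releases iron from the vacuole in Arabidopsis, had 10.97, 10.96, 8.59 and 10.7 FPKM in the CK libraries and 40.5, 39.96, 32.1 and 29.4 FPKM in the EWT libraries, and its difference of 1.77 ± 0.18 (SE, adjusted p = 3.5e-10) was larger than later by 1.69 ± 0.20 (SE, adjusted p = 1.7e-07). The transcription factor FIT (evm_TU_scaffold_533_273), the regulator that switches on iron acquisition in Arabidopsis, had 4.64, 4.98, 2.65 and 3.56 FPKM in the CK libraries and 22.4, 31.9, 17.5 and 22.02 FPKM in the EWT libraries, a call that was lost with a pseudocount of 0.01 (adjusted p = 0.1). Its shift against the later times, 1.03 ± 0.61 (SE, adjusted p = 0.34), did not pass the direct test. A nicotianamine synthase copy (evm_TU_scaffold_1_65), which makes the metal chelator of phloem and xylem, had 2.90, 1.08, 0.965 and 0.711 FPKM in the CK libraries and 34.2, 34.3, 23.1 and 10.8 FPKM in the EWT libraries, larger at 0 h than later by 3.46 ± 0.70 (SE, adjusted p = 0.00081). Another copy (evm_TU_scaffold_510_45) was lower in EWT, with 16.1, 8.59, 14.4 and 7.89 FPKM in the CK libraries and 0.412, 0.651, 0.631 and 0.151 FPKM in the EWT libraries, and the sum over nicotianamine synthase was not called.

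Summed over all copies of a name, these iron genes were also higher. Nramp5 summed to 118 ± 17.8 FPKM in CK and 554 ± 103 FPKM in EWT, Nramp3 to 45.2 ± 1.78 FPKM in CK and 133 ± 24.3 FPKM in EWT, the BRUTUS-like name to 38.1 ± 4.78 FPKM in CK and 161 ± 28.1 FPKM in EWT and FIT to 28.7 ± 3.96 FPKM in CK and 97.1 ± 24.04 FPKM in EWT. Each sum was called, with log2 differences of 2.23 ± 0.41 (SE, adjusted p = 7.5e-05), 1.53 ± 0.13 (SE, adjusted p = 3.2e-11), 2.06 ± 0.23 (SE, adjusted p = 8.3e-09) and 1.73 ± 0.32 (SE, adjusted p = 6.5e-05). Outside the list, CYP82C4, which in Arabidopsis makes the iron-mobilising coumarin sideretin, summed to 13.5 ± 3.22 FPKM in CK and 95.9 ± 27.5 FPKM in EWT, a difference of 2.81 ± 0.62 (SE, adjusted p = 0.0007). Lumazine synthase and riboflavin synthase, the last enzymes of riboflavin synthesis, summed to 27.2 ± 6.49 FPKM in CK and 133 ± 34.6 FPKM in EWT and to 31.7 ± 1.75 FPKM in CK and 98.1 ± 27.2 FPKM in EWT. The riboflavin sums differed by 2.28 ± 0.26 (SE, adjusted p = 1.3e-08) and 1.59 ± 0.19 (SE, adjusted p = 4.6e-08). Riboflavin is a compound that some roots secrete when iron is short. These names were chosen after their values were seen. Across the iron list, the counts were 10 higher and 11 lower at 3 h, 8 higher and 20 lower at 12 h, 14 higher and 13 lower at 24 h and 15 higher and 3 lower after reoxygenation, with medians of 0.12, 0.00, 0.00 and 0.00. The direct test called 32 of 114 members as shifted toward EWT at 0 h and 5 toward CK. That count includes the 0 h values with which the list was chosen and is a description only.

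**Figure D3:**
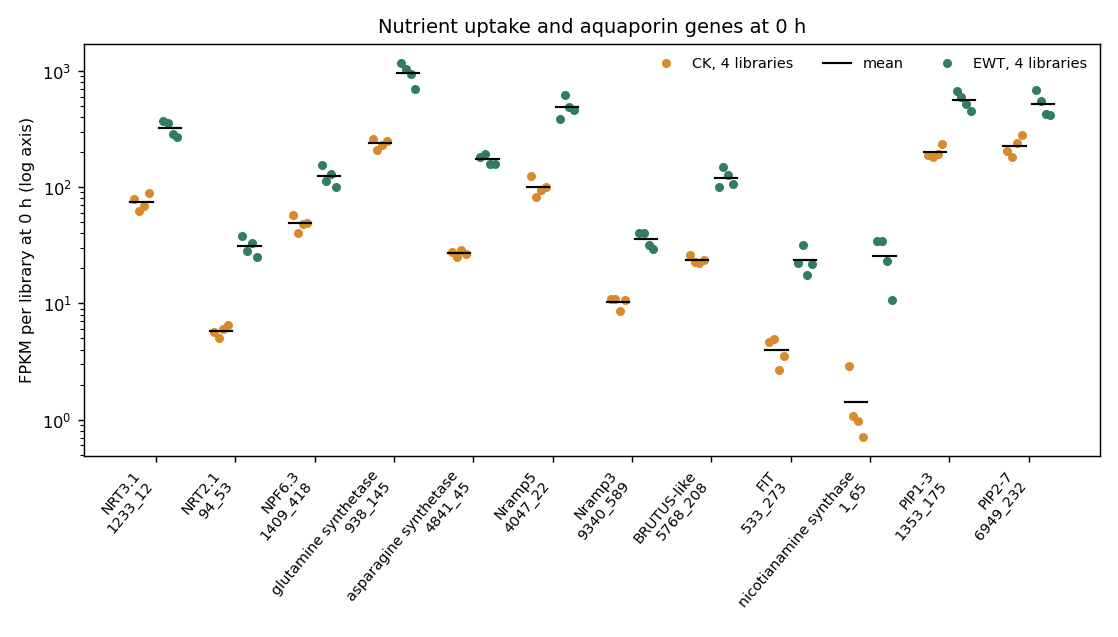
FPKM at 0 h on a log axis for 12 genes of nitrogen, iron and water uptake, with 1 point for each of the 4 CK (orange) and 4 EWT (green) libraries and a black line at the mean. Labels give the protein name and the end of the gene identifier. In each of these genes every EWT point lies above every CK point.

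Genes of phosphate transport included differences of both kinds. PHO1 (evm_TU_scaffold_7218_17), which loads phosphate into the xylem in Arabidopsis, was lower in EWT with 37.1, 28.9, 44.99 and 37.5 FPKM in the CK libraries and 5.73, 9.46, 8.34 and 6.76 FPKM in the EWT libraries and a log2 difference of -2.29 ± 0.37 (SE, adjusted p = 5.1e-06). Putative glycerol-3-phosphate transporter 1 (evm_TU_scaffold_1252_97) was higher, with 2.79, 2.24, 2.49 and 1.90 FPKM in the CK libraries and 22.5, 23.6, 23.8 and 20.4 FPKM in the EWT libraries. Its difference turned from 3.22 ± 0.29 (SE, adjusted p = 2.4e-11) at 0 h to 0.75 at 3 h, -1.67 at 12 h, -1.51 at 24 h and -0.01 after reoxygenation, and the shift of 3.83 ± 0.32 (SE, adjusted p = 1.4e-10) passed the test.

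Aquaporins of the plasma membrane, the channels through which water enters root cells, were higher in EWT or not called. This list was drawn up after the values at 0 h were seen. Of 41 tested members, 11 (26.8%) were higher and 0 lower, against 14.3% and 12.9% of all matched genes, with a median of 0.32. Their summed level was 4937 ± 624 FPKM in CK and 6094 ± 1125 FPKM in EWT, and the libraries of the cultivars overlapped in it. PIP1-3 (evm_TU_scaffold_1353_175) had 188, 183, 194 and 233 FPKM in the CK libraries and 666, 592, 515 and 452 FPKM in the EWT libraries, a log2 difference of 1.47 ± 0.25 (SE, adjusted p = 9.5e-06) that stayed at 1.77 at 3 h, 1.45 at 12 h, 1.77 at 24 h and 1.79 after reoxygenation. PIP2-7 (evm_TU_scaffold_6949_232) had 206, 180.2, 242 and 278 FPKM in the CK libraries and 688, 554, 425 and 417 FPKM in the EWT libraries and a difference of 1.19 ± 0.22 (SE, adjusted p = 3.2e-05). Under PIP2-4, the sum was 255 ± 32.2 FPKM in CK and 610.1 ± 78.1 FPKM in EWT, a difference of 1.26 ± 0.36 (SE, adjusted p = 0.0076). Aquaporins of all kinds gave 25 higher and 8 lower of 117 (21.4% and 6.84%). They summed to 8959 ± 1114 FPKM in CK and 10254 ± 2153 FPKM in EWT, again with overlap. The proton pump Plasma membrane ATPase 4, which powers nutrient carriers, summed to 337, 323, 389.7 and 383 FPKM in the CK libraries and 736, 816, 805 and 579.5 FPKM in the EWT libraries, a difference of 1.03 ± 0.17 (SE, adjusted p = 2.3e-05). Its lowest EWT library was above its highest CK library.

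Ethylene response factors and their relatives were lower in EWT more often than higher. Among ERF, DREB and TINY factors, 31 of 323 tested members were higher in EWT and 61 lower, 9.60% and 18.9%, with a median of -0.21 and a summed level of 5891 ± 719 FPKM in CK and 3966 ± 479 FPKM in EWT. RAP2-2 (evm_TU_scaffold_339_51), a group VII factor that activates hypoxia genes in Arabidopsis, had 229, 271, 284 and 252 FPKM in the CK libraries and 67.6, 66.2, 60.2 and 58.3 FPKM in the EWT libraries. The log2 difference of -2.03 ± 0.17 (SE, adjusted p = 4.1e-12) was followed by -1.62 at 3 h, -1.97 at 12 h, -2.44 at 24 h and -1.63 after reoxygenation. Over the name RAP2-2 the sum was 612 ± 45.8 FPKM in CK and 422 ± 42.3 FPKM in EWT, a difference of -0.54 ± 0.15 (SE, adjusted p = 0.0061) that passed the p threshold but not the fold threshold. RAP2-3, of the same group, had 2 of 6 tested genes called lower and 1 higher. Its copy evm_TU_scaffold_1610_52 had 42.7, 71.1, 69.6 and 83.7 FPKM in the CK libraries and 9.14, 9.61, 10.8 and 6.70 FPKM in the EWT libraries. The copy called higher, evm_TU_scaffold_1090_32, had 37.8, 53.5, 59.7 and 55.9 FPKM in the CK libraries and 128, 121, 123 and 86.9 FPKM in the EWT libraries. These copies went opposite ways, and the mean sums over the name were 184 FPKM in CK and 164 FPKM in EWT. ERF4, a repressor in Arabidopsis, had 5 of 14 tested genes lower and 1 higher, and mean sums of 1039 FPKM in CK and 629.5 FPKM in EWT. Its most abundant copy (evm_TU_scaffold_1333_588) had 249, 314, 289.8 and 316 FPKM in the CK libraries and 186, 196, 137 and 163 FPKM in the EWT libraries, a log2 difference of -0.79 ± 0.21 (SE, adjusted p = 0.0036) that passed the p threshold but not the fold threshold. Another copy (evm_TU_scaffold_1266_48) had 129.95, 158, 152 and 162 FPKM in the CK libraries and 37.5, 30.6, 24.3 and 29.5 FPKM in the EWT libraries, a difference of -2.31 ± 0.18 (SE, adjusted p = 4.4e-13). No protein name holds the word HRE2, and the 2 genes named TINY had too few fragments in the series to be tested. Genes were found by words in the protein names only. The study reports RNA-seq levels of CmHRE2 and CmTINY2 in these roots, so those genes may stand under other names here.

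For several of these factors the difference at 0 h was unlike the later ones. ERF109, ERF013 and DREB1B were chosen after their values were seen. The values at 0 h enter the test of the shift, so its p-values describe these genes only. ERF109 (evm_TU_scaffold_11705_88), a redox-responsive factor of Arabidopsis, had 145, 175, 175 and 181 FPKM in the CK libraries and 53.5, 73.2, 40.01 and 67.6 FPKM in the EWT libraries and a difference of -1.56 ± 0.33 (SE, adjusted p = 0.00022), followed by 0.19 at 3 h, -0.48 at 12 h, -1.06 at 24 h and 0.06 after reoxygenation. The shift against the later times was -1.24 ± 0.37 (SE, adjusted p = 0.023). The name ERF109 summed to 456, 578, 608 and 650.3 FPKM in the CK libraries and 197, 274, 153 and 227 FPKM in the EWT libraries, a difference of -1.45 ± 0.28 (SE, adjusted p = 0.00017). ERF013 (evm_TU_scaffold_508_543) had 27.9, 48.4, 55.2 and 62.8 FPKM in the CK libraries and 17.4, 16.7, 14.9 and 13.2 FPKM in the EWT libraries and turned from -1.58 ± 0.36 (SE, adjusted p = 0.00056) at 0 h to 1.43 at 3 h, 1.44 at 12 h, 0.73 at 24 h and 0.57 after reoxygenation, a shift of -2.63 ± 0.40 (SE, adjusted p = 1.7e-05). DREB1B (evm_TU_scaffold_102_34), a regulator of cold responses, had 18.3, 27.6, 25.4 and 29.8 FPKM in the CK libraries and 1.63, 3.44, 0.521 and 1.80 FPKM in the EWT libraries and a difference of -3.93 ± 0.36 (SE, adjusted p = 4.5e-11), larger than later by -2.13 ± 0.40 (SE, adjusted p = 0.00033) toward CK. Over the list, the counts changed from 31 higher and 61 lower at 0 h to 64 higher and 38 lower at 3 h, 56 higher and 59 lower at 12 h, 39 higher and 68 lower at 24 h and 42 higher and 46 lower after reoxygenation. The direct test called 21 of 323 members as shifted toward CK at 0 h and 9 toward EWT, against 4.89% and 4.2% of all tested genes.

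Calcium sensors, counted on a list drawn up after the values at 0 h were seen, were also lower in EWT more often than higher. Calmodulins and calmodulin-like proteins gave 26 higher and 56 lower of 242, 10.7% and 23.1% against 14.3% and 12.9% of all matched genes. Their median was -0.20, with a summed level of 6529.9 ± 708 FPKM in CK and 4534 ± 546 FPKM in EWT. A calmodulin gene (evm_TU_scaffold_1336_66) had 566, 776, 718 and 712 FPKM in the CK libraries and 246, 301, 247 and 279 FPKM in the EWT libraries, a difference of -1.36 ± 0.13 (SE, adjusted p = 2e-10) that was larger than later by -1.09 ± 0.15 (SE, adjusted p = 2.7e-06). CML38, which in Arabidopsis is induced by hypoxia and touch, summed to 1176, 1659, 1785 and 1945 FPKM in the CK libraries and 822, 1116, 518 and 868 FPKM in the EWT libraries, a difference of -1.01 ± 0.23 (SE, adjusted p = 0.0013). Its copies were called in both directions, 3 higher and 11 lower of 22. CML38 and the calcium pump below were chosen after their values were seen. The copy evm_TU_scaffold_717_4 had 255, 356, 376 and 424 FPKM in the CK libraries and 194, 225, 115 and 177 FPKM in the EWT libraries, a difference of -1.01 ± 0.27 (SE, adjusted p = 0.0034) that fell under 2-fold, to as little as -0.81, without CK library 2, 3 or 4 or EWT library 3, and to -0.97 when libraries were rescaled by all fragments. The copy evm_TU_scaffold_11656_26 had 163, 199, 223 and 231 FPKM in the CK libraries and 37.8, 61.1, 19.9 and 38.1 FPKM in the EWT libraries. Both shifted toward CK at 0 h, by -1.59 ± 0.30 (SE, adjusted p = 0.00038) and -1.67 ± 0.35 (SE, adjusted p = 0.0011). The calcium pump Calcium-transporting ATPase 2 summed to 214 ± 38.4 FPKM in CK and 62.5 ± 12.5 FPKM in EWT, a difference of -1.78 ± 0.35 (SE, adjusted p = 0.00017). The calmodulin list had 48 higher and 27 lower (median 0.21) at 3 h, 52 higher and 39 lower (median 0.01) at 12 h, 42 higher and 47 lower (median -0.02) at 24 h and 31 higher and 29 lower (median -0.03) after reoxygenation.

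Among other stress factors, which are counted on lists drawn up after the values at 0 h were seen, NAC genes were also lower in EWT more often than higher. ZAT zinc finger factors gave 5 higher and 6 lower of 34 (14.7% and 17.6%). Of these, ZAT6 (evm_TU_scaffold_3516_36) was the most abundant called lower, with 418, 486, 531 and 565 FPKM in the CK libraries and 156, 137, 106 and 181 FPKM in the EWT libraries and a difference of -1.80 ± 0.20 (SE, adjusted p = 3e-09). ZAT12, a reactive oxygen-responsive factor, had a copy (evm_TU_scaffold_871_119) with 3.67, 3.85, 6.10 and 5.43 FPKM in the CK libraries and 45.7, 53.1, 31.1 and 43.4 FPKM in the EWT libraries, higher in EWT by 3.17 ± 0.23 (SE, adjusted p = 1e-13). WRKY factors gave 20 higher and 28 lower of 190 (10.5% and 14.7%) and NAC factors 12 higher and 26 lower of 143 (8.39% and 18.2%). The shares in all matched genes were 14.3% and 12.9%, and the medians were -0.13 for WRKY and -0.20 for NAC. WRKY41 (evm_TU_scaffold_1554_314), a defence factor in Arabidopsis, had 109, 131, 126 and 153 FPKM in the CK libraries and 35.6, 45.7, 27.8 and 49.9 FPKM in the EWT libraries. NAC17 (evm_TU_scaffold_322_103), which in Arabidopsis carries a signal from mitochondria, had 72.7, 74.7, 70.4 and 68.5 FPKM in the CK libraries and 28.6, 34.4, 28.1 and 30.2 FPKM in the EWT libraries and a difference of -1.24 ± 0.14 (SE, adjusted p = 7.3e-09). Heat shock proteins and factors gave 80 higher and 72 lower of 555 (14.4% and 13.0%), near the shares of all matched genes. The balance turned in 1 or more alternative settings for the ZAT, WRKY and heat shock lists and in none for NAC.

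**Figure D4:**
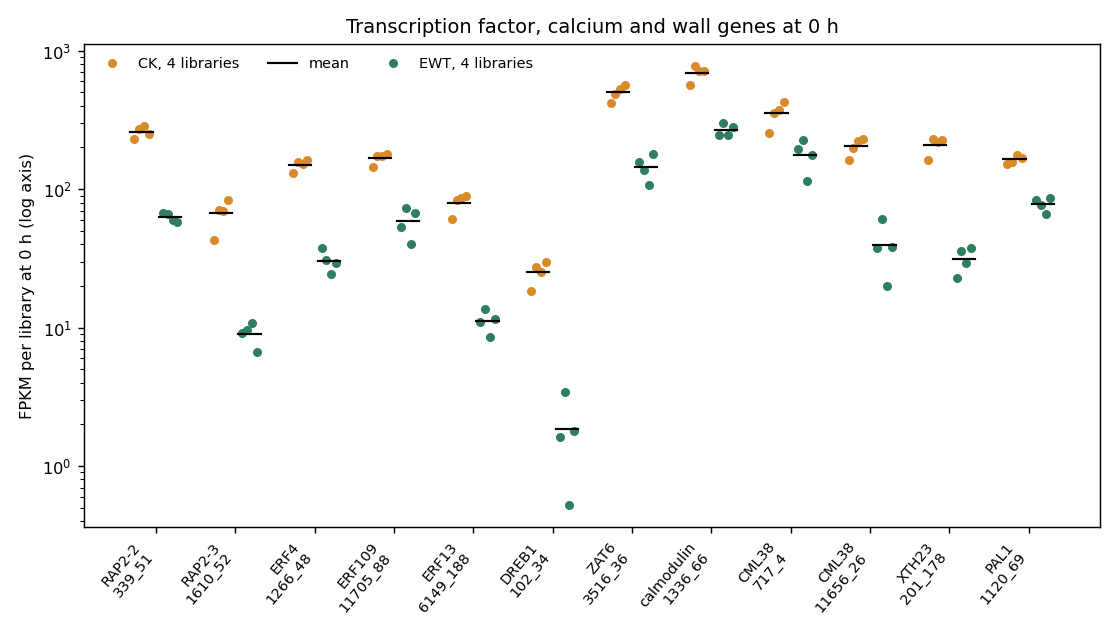
FPKM at 0 h on a log axis for 12 genes of the ERF, DREB, ZAT, calcium sensor, cell wall and phenylpropanoid groups, with 1 point for each of the 4 CK (orange) and 4 EWT (green) libraries and a black line at the mean. In each of these genes every EWT point lies below every CK point.

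Enzymes of glycolysis were higher in EWT more often than lower. For glycolytic enzymes and PEP carboxykinase, 75 of 333 tested members were higher in EWT and 42 lower, with a median of 0.30. These are 22.5% and 12.6%, against 14.3% and 12.9% of all matched genes. The summed level was 6069 ± 791 FPKM in CK and 8297 ± 1400.4 FPKM in EWT, and the libraries of the cultivars overlapped in it. GAPC2 and enolase 1 below were chosen after their values were seen. Triosephosphate isomerase (evm_TU_scaffold_1759_400) had 55.1, 66.96, 62.9 and 84.9 FPKM in the CK libraries and 622, 576, 437 and 359 FPKM in the EWT libraries, a difference of 2.87 ± 0.18 (SE, adjusted p = 2e-15), and later 2.07 at 3 h, 1.30 at 12 h, 1.22 at 24 h and 1.58 after reoxygenation. GAPC2, a cytosolic glyceraldehyde-3-phosphate dehydrogenase (evm_TU_scaffold_1809_105), had 87.1, 72.9, 103 and 105 FPKM in the CK libraries and 335, 303, 311 and 206 FPKM in the EWT libraries and a difference of 1.64 ± 0.30 (SE, adjusted p = 2.9e-05). Enolase 1 (evm_TU_scaffold_11394_34) had 41.1, 42.4, 39.03 and 57.1 FPKM in the CK libraries and 162, 174, 146 and 111 FPKM in the EWT libraries, larger at 0 h than later by 1.90 ± 0.21 (SE, adjusted p = 4.5e-08). In the other direction a cytosolic glyceraldehyde-3-phosphate dehydrogenase (evm_TU_scaffold_10124_356) had 199.99, 214, 203 and 241 FPKM in the CK libraries and 105, 103, 95.2 and 77.4 FPKM in the EWT libraries. The counts for this list were 57 higher and 65 lower at 3 h, 81 higher and 55 lower at 12 h, 86 higher and 62 lower at 24 h and 63 higher and 41 lower after reoxygenation.

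Fermentation enzymes did not share that balance. They gave 11 higher and 18 lower of 82, 13.4% and 22.0% against 14.3% and 12.9% of all matched genes. Their median was 0.00, with a summed level of 615 ± 44.8 FPKM in CK and 549 ± 42.3 FPKM in EWT. Alanine aminotransferase 2, which makes alanine from pyruvate, had a copy (evm_TU_scaffold_1081_229) with 93.9, 101, 87.4 and 104 FPKM in the CK libraries and 24.2, 20.4, 22.2 and 16.5 FPKM in the EWT libraries. Another copy (evm_TU_scaffold_499_95) had 21.9, 26.4, 24.8 and 30.95 FPKM in the CK libraries and 67.3, 60.4, 57.5 and 41.3 FPKM in the EWT libraries, so copies of this enzyme went both ways. Pyruvate decarboxylase 1, the first enzyme of ethanol fermentation, had a copy (evm_TU_scaffold_1489_554) with 7.35, 9.03, 6.27 and 6.26 FPKM in the CK libraries and 18.3, 18.4, 17.8 and 13.4 FPKM in the EWT libraries, higher by 1.23 ± 0.23 (SE, adjusted p = 6.1e-05), and a sum of 33.9 ± 3.34 FPKM in CK and 43.2 ± 5.34 FPKM in EWT, a difference of 0.34 ± 0.22 (SE, adjusted p = 0.29). Alcohol dehydrogenase 1, the last enzyme of that path, summed to 26.6 ± 9.69 FPKM in CK and 25.2 ± 4.36 FPKM in EWT, a difference of -0.03 ± 0.22 (SE, adjusted p = 0.95) that was not called. Oxygen sensing genes and hemoglobins, which include the group VII factors above, gave 4 higher and 7 lower of 46 (8.70% and 15.2%). Glutamate decarboxylase, which makes GABA, summed to 324 ± 21.04 FPKM in CK and 154 ± 20.1 FPKM in EWT, and LOB domain-containing protein 41, a factor induced by hypoxia in Arabidopsis, to 229 ± 44.4 FPKM in CK and 97.5 ± 13.2 FPKM in EWT, with differences of -1.08 ± 0.24 (SE, adjusted p = 0.00061) and -1.22 ± 0.19 (SE, adjusted p = 6e-06). Sucrose, fructan and starch enzymes gave 41 higher and 23 lower of 228, with sucrose synthase isoform 1 (evm_TU_scaffold_3531_14), which splits sucrose, at 166, 196, 174 and 154 FPKM in the CK libraries and 81.2, 59.9, 63.4 and 41.9 FPKM in the EWT libraries.

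Genes that respond to reoxygenation were read at 0 h through a set chosen without the 0 h libraries. The set held 5340 genes that were lower after 3 h of reoxygenation than at 24 h of waterlogging in both cultivars. The library sizes behind the FPKM were 0.803 to 0.9997 times the fragments on genes at 24 h and 1.18 to 1.30 times after reoxygenation, and the set held 2590 genes when libraries were rescaled by all fragments. At 0 h, 1016 of them (19.03%) were higher in EWT and 578 (10.8%) lower, against 16.4% and 13.6% of all tested genes, with a median of 0.17 against 0.09. In the rescaled set the shares were 21.4% and 9.73%, against 17.4% and 13.7% of all tested genes on that scale. The 6181 genes that were higher after reoxygenation in both cultivars had 7.30% higher and 10.2% lower at 0 h. Both sets are descriptions and were not tested as sets.

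Genes of the cell wall and of phenylpropanoid synthesis were called in both directions, and lower in EWT more often than higher. Among all matched genes 14.3% were higher and 12.9% lower. Cell wall loosening and pectin enzymes gave 48 higher and 65 lower of 430 (11.2% and 15.1%), lignin, suberin and Casparian strip genes 54 higher and 78 lower of 475 (11.4% and 16.4%), and phenylpropanoid and flavonoid enzymes 29 higher and 39 lower of 213 (13.6% and 18.3%), with medians of -0.16, -0.13 and -0.06. The xylem vessel markers, some of which make lignified walls, were also lower in EWT in sum, and their part in these counts was not tested. XTH23, an enzyme that cuts and joins xyloglucan, had neighbouring copies on chromosome 13. The copy evm_TU_scaffold_201_178 had 162, 232, 218 and 225 FPKM in the CK libraries and 22.8, 35.96, 29.2 and 37.5 FPKM in the EWT libraries. The copy evm_TU_scaffold_201_177 had 162, 230.1, 218 and 227 FPKM in the CK libraries and 20.97, 19.5, 13.4 and 21.3 FPKM in the EWT libraries. The pair had nearly the same level in each CK library. The name summed to 742 ± 114 FPKM in CK and 190.3 ± 37.2 FPKM in EWT, a difference of -1.97 ± 0.16 (SE, adjusted p = 6.2e-12). PHOSPHATE-INDUCED 1, a secreted protein of the EXORDIUM family, summed to 876 ± 162 FPKM in CK and 271 ± 44.8 FPKM in EWT, a difference of -1.68 ± 0.17 (SE, adjusted p = 1.3e-09). Phenylalanine ammonia-lyase 1 (evm_TU_scaffold_1120_69), the entry enzyme of the phenylpropanoid path, had 153, 158, 178 and 167 FPKM in the CK libraries and 82.9, 77.01, 66.1 and 86.1 FPKM in the EWT libraries and a difference of -1.07 ± 0.15 (SE, adjusted p = 2.1e-07), which was -0.996 without EWT library 3 and then missed the fold threshold. Its name summed to 1415 ± 116 FPKM in CK and 892 ± 63.5 FPKM in EWT, a difference of -0.66 ± 0.14 (SE, adjusted p = 0.00058), under 2-fold. Laccase-7 (evm_TU_scaffold_1692_425), of the enzymes that polymerise lignin units, had 97.9, 125, 109.9 and 111 FPKM in the CK libraries and 47.6, 51.02, 57.6 and 60.01 FPKM in the EWT libraries and a difference of -1.03 ± 0.27 (SE, adjusted p = 0.0022), which was as small as -0.98 and missed the fold threshold without CK library 2 or EWT library 1. Class III peroxidases gave 34 higher and 35 lower of 239, with Peroxidase 42 (evm_TU_scaffold_1298_159) at 718, 740.4, 992 and 1003 FPKM in the CK libraries and 503, 365, 346 and 313 FPKM in the EWT libraries. At 3 h the wall loosening list had 60 higher and 47 lower, and after reoxygenation 73 higher and 43 lower.

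Specialised metabolism differed in both directions. Terpene enzymes gave 50 higher and 35 lower of 206, 24.3% and 17.0% against 14.3% and 12.9% of all matched genes, and a median of 0.30. Beta-caryophyllene synthase (evm_TU_scaffold_237_76), which makes a volatile sesquiterpene, had 109.98, 99.6, 129.8 and 136 FPKM in the CK libraries and 329, 210.1, 272 and 339.8 FPKM in the EWT libraries, a difference of 1.26 ± 0.47 (SE, adjusted p = 0.035). That call was lost without any 1 of 6 libraries, CK 1, 2 or 3 or EWT 1, 3 or 4, with an adjusted p of up to 0.083. Farnesyl diphosphate synthase 2 (evm_TU_scaffold_10346_306), which makes the precursor of sesquiterpenes, had 39.5, 40.8, 53.4 and 45.8 FPKM in the CK libraries and 2.27, 1.44, 1.97 and 2.34 FPKM in the EWT libraries and a difference of -4.43 ± 0.53 (SE, adjusted p = 1.6e-08). Fatty acid desaturases and acetylenases gave 10 higher and 10 lower of 68 (14.7% and 14.7%). Cytochromes P450 gave 73 higher and 61 lower of 407 (17.9% and 15.0%) and UDP-glycosyltransferases 60 higher and 82 lower of 478 (12.6% and 17.2%). Among reactive oxygen enzymes and glutathione transferases, with 40 higher and 49 lower of 267, a cytosolic ascorbate peroxidase (evm_TU_scaffold_944_177), which removes hydrogen peroxide, had 230.2, 236, 273 and 359 FPKM in the CK libraries and 50.3, 31.1, 34.6 and 29.6 FPKM in the EWT libraries and a difference of -2.92 ± 0.26 (SE, adjusted p = 2.3e-11).

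Genes for disease resistance proteins were called often and evenly. Disease resistance proteins gave 212 higher and 212 lower of 904, 23.5% and 23.5%, both above the shares among all genes with a match, and a median of 0.01. Disease resistance protein L6 (evm_TU_scaffold_1600_57), an immune receptor named from flax, had 186, 201, 207 and 164 FPKM in the CK libraries and 71.96, 88.96, 93.8 and 85.5 FPKM in the EWT libraries. Pathogenesis related and inhibitor proteins gave 47 higher and 43 lower of 343, and Kirola (evm_TU_scaffold_4833_81) was the most abundant called higher, with 610.01, 583, 537 and 606 FPKM in the CK libraries and 1726, 1275, 1014 and 1265 FPKM in the EWT libraries. Transposon-like genes gave 46 higher and 40 lower of 210.

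Hormone genes were called in both directions. Ethylene synthesis and signalling gave 17 higher and 12 lower of 105 (16.2% and 11.4%). Abscisic acid gave 7 higher and 10 lower of 84 (8.33% and 11.9%) and gibberellin 12 higher and 16 lower of 89 (13.5% and 17.98%). Auxin gave 35 higher and 36 lower of 284 (12.3% and 12.7%) and jasmonate 29 higher and 28 lower of 169 (17.2% and 16.6%). The shares among all matched genes were 14.3% and 12.9%. No direction is given for the abscisic acid, auxin and jasmonate lists, whose balance turned under some settings. ACC synthase (evm_TU_scaffold_6017_9), the rate-setting enzyme of ethylene synthesis, had 179.8, 193, 239.9 and 219 FPKM in the CK libraries and 9.42, 14.04, 11.2 and 9.37 FPKM in the EWT libraries. The lowest CK library was above the highest EWT library, the difference was -4.24 ± 0.37 (SE, adjusted p = 1e-11), and it stayed at -4.74 at 3 h, -6.49 at 12 h, -6.90 at 24 h and -3.90 after reoxygenation. ACC oxidase 3 (evm_TU_scaffold_448_96), which makes ethylene from ACC, had 65.5, 61.7, 70.3 and 69.5 FPKM in the CK libraries and 157, 196, 123 and 196 FPKM in the EWT libraries, higher by 1.30 ± 0.29 (SE, adjusted p = 0.00053). These single copies were picked as the most abundant called in each direction, so their opposite directions follow from the pick. No sum over either name is given. Gibberellin 2-beta-dioxygenase 1 (evm_TU_scaffold_1806_761), which inactivates gibberellin, had 118, 166, 138 and 148 FPKM in the CK libraries and 31.1, 54.4, 35.6 and 74.8 FPKM in the EWT libraries. A 12-oxophytodienoate reductase (evm_TU_scaffold_7442_6), named for a step of jasmonate synthesis, had 124, 149, 186 and 147 FPKM in the CK libraries and 50.8, 47.5, 56.7 and 40.5 FPKM in the EWT libraries and a difference of -1.63 ± 0.25 (SE, adjusted p = 2.3e-06) that was called at no later time. The abscisic acid receptor PYL4 (evm_TU_scaffold_10885_197) had 8.15, 7.60, 13.7 and 12.4 FPKM in the CK libraries and 3.90, 3.54, 2.02 and 2.61 FPKM in the EWT libraries.

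Genes for ribosomes and chromatin were called at shares near those of all matched genes. Ribosomal proteins gave 149 higher and 167 lower of 1215 with a median of 0.00, and histones and cell cycle genes 97 higher and 119 lower of 770 with -0.11. The chaperone gene dnaJ 20 (evm_TU_scaffold_1149_235) was among the most abundant lower genes, with 792, 855, 934 and 846 FPKM in the CK libraries and 237, 377, 228 and 339 FPKM in the EWT libraries and a difference of -1.57 ± 0.18 (SE, adjusted p = 4.3e-09).

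**Figure D5:**
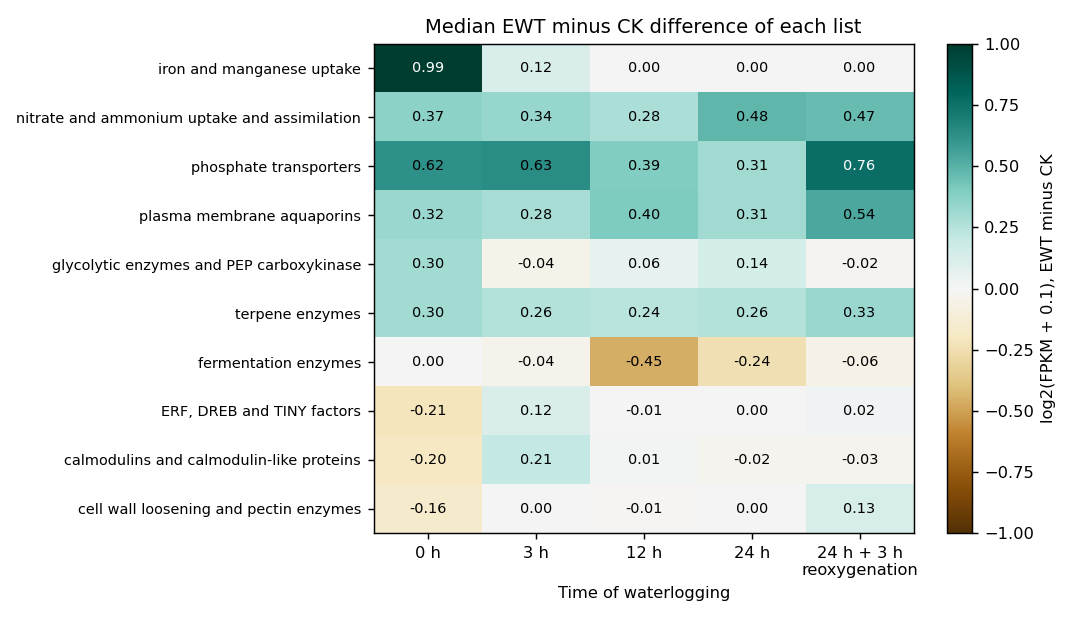
Median EWT minus CK difference of all tested members on the log2(FPKM + 0.1) scale (colour and number) for 10 gene lists (rows) at the 5 times (columns). Iron and manganese uptake falls from 0.99 at 0 h to 0.12 at 3 h, ERF factors and calmodulins turn from below to above 0 between 0 h and 3 h, and nitrate assimilation and plasma membrane aquaporins stay above 0 throughout.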

How the data were processed

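RNA-seq of roots was deposited as 1 table of FPKM for 178540 genes and 40 libraries. FPKM values were made by the authors from featureCounts fragment counts. The submitters' processing notes name fastp, HISAT2 2.0.5 and featureCounts 1.5.0-p3, while no source used here names the genome build. The authors tested their counts with DESeq2. With the gene lengths of the table, every non-zero FPKM value came out as a whole number of fragments within 0.01, and these fragments served only for depth, limits of detection and a filter on depth.

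Genes with at least 1 FPKM in at least 4 of the 40 libraries, 89517 in all, were tested on log2(FPKM + 0.1) with limma 3.58.1 in R 4.3.3, with 1 mean for each of the 10 groups, so that all libraries shared the estimate of spread, and empirical Bayes moderation. EWT minus CK at 0 h was the main contrast, and the difference at 0 h minus the mean of the 4 later ones was tested in the same fit. P-values were adjusted over all tested genes with the Benjamini-Hochberg method. Sums over all genes of a protein name were fitted likewise. Tested on simulated data for the 0 h contrast, the procedure recovered 9 of 50 genes changed by 2-fold, 44 of 50 by 4-fold and 50 of 50 by 8-fold among 78377 genes. Only 200 genes were changed there, all with a mean of at least 50 fragments, and the dispersion was set to 0.1. A change of exactly 2-fold lies on the fold threshold, so many such genes miss it whatever the spread. Far more genes were called in the roots, so these rates need not hold there.

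Libraries differ by more than counting noise. The study's methods call the 4 samples of a group biological replicates, and the labels do not say which plants each came from, so p-values measure the spread between these samples. Deviations of same-numbered libraries from their group means had correlations of -0.082 to 0.0069, and the numbers were not used as pairs. The 43 gene lists were drawn from words in the protein names. Members and lists were chosen with earlier results of these data known, and 10 lists (iron, nitrate, NRT1/PTR, phosphate, potassium, plasma membrane aquaporins, calmodulins, WRKY, NAC and ZAT) after the values at 0 h were seen. Named genes followed a rule, which took, from genes without overlap between cultivars, the most abundant called gene of each list in each direction, the largest folds among called genes with a mean of at least 5 FPKM in 1 cultivar, the most abundant called genes, the most abundant copies of named factors and the most abundant matched genes without a fragment in CK. Chosen outside it, after their values were seen, were the named copies of nitrate transporters 3.1 and 2.1, asparagine synthetase, BRUTUS-like, Nramp3, FIT, nicotianamine synthase (evm_TU_scaffold_1_65), PIP2-7, GAPC2, enolase 1, pyruvate decarboxylase 1, ERF109, ERF013, DREB1B, CML38, TOM9-2, the lower copies of RAP2-3 and ERF4, 1 copy of XTH23, and all sums other than those of elongation factor 1-alpha, DC2.15, Calmodulin-1/11/16, TIP1-1, Kirola and glutamine synthetase. Alternatives changed the pseudocount, the filter, the libraries fitted, the scaling, the weights, the replicate block and the fold threshold, and left out each library at 0 h in turn. The count limited to deep genes was added after the data were seen.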

Additional observations from a re-analysis of the deposited data

Results flagged for a closer look

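Among the 72 genes whose values are given, 25 had a difference between the cultivars at 0 h that differed from the mean of the later times by the limma test of that shift, with Benjamini-Hochberg adjusted p-values. These genes were named for their values at 0 h, which enter that test, so their number says nothing about genes in general. The shifts below are on the log2(FPKM + 0.1) scale, positive toward EWT at 0 h. Genes that moved toward EWT were the BRUTUS-like gene (1.78), Nramp3 (1.69), the nicotianamine synthase copy evm_TU_scaffold_1_65 (3.46), glycerol-3-phosphate transporter 1 (3.83), triosephosphate isomerase (1.33), GAPC2 (1.30), enolase 1 (1.90), pyruvate decarboxylase 1 (1.08) and the TMV resistance protein N copy (4.37). PHO1 (1.52) and ACC synthase (1.27) also shifted toward EWT, being lower in EWT by less at 0 h than later. Genes that moved toward CK were ERF109 (-1.24), ERF013 (-2.63), DREB1B (-2.13), the calmodulin gene evm_TU_scaffold_1336_66 (-1.09), the CML38 copies evm_TU_scaffold_717_4 (-1.59) and evm_TU_scaffold_11656_26 (-1.67), the XTH23 copies evm_TU_scaffold_201_178 (-1.71) and evm_TU_scaffold_201_177 (-1.31), phenylalanine ammonia-lyase 1 (-1.06) and laccase-7 (-1.21). The nicotianamine synthase copy evm_TU_scaffold_510_45 (-2.97), the TIP1-1 copy evm_TU_scaffold_1557_372 (-2.05), histone H2B.7 (-3.36) and the ALTERED XYLOGLUCAN 4-like gene (-3.79) did so as well. The last 2 and the TMV resistance protein N copy were near 0 in 1 cultivar, where a shift follows the level of the other cultivar and the pseudocount.

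In 8 of the 144 groups of 4 libraries behind these genes, 1 library stood apart, its gap to the nearest other library taking most of the range of the group. Chance flags about 1 in 20 such groups. In CK, the apart library was number 2 for both TIP1-1 copies, evm_TU_scaffold_1557_372 (gap over range 0.84) and evm_TU_scaffold_4532_3 (0.924), number 3 for Nramp3 (0.893), and number 1 for nicotianamine synthase evm_TU_scaffold_1_65 (0.831) and ERF109 (0.831). In EWT it was number 4 for RAP2-3 evm_TU_scaffold_1090_32 (0.846) and pyruvate decarboxylase 1 (0.887), and number 3 for histone H2B.7 (1.0), the 1 EWT library with fragments. No reason was tested for these.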

How the results depend on the processing

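Of 26824 genes called at 0 h (14657 higher and 12167 lower in EWT), a pseudocount of 1 left 17806 (9316 higher), a mean FPKM of at least 2 left 12498 (6412 and 6086), a filter on the 8 libraries at 0 h 17640 (9265 higher), a fold of at least 4 16659 (9219 and 7440), and genes of at least 50 fragments 15966 (8411 and 7555). Without 1 library at a time the counts were 24649 to 25266 (13277 to 13755 higher, 11187 to 11582 lower). Of 8133 genes whose difference at 0 h was unlike the later one (3759 toward EWT, 4374 toward CK), a mean FPKM of at least 2 left 4815 (2157 and 2658) and a fold of at least 4 left 4354 (2109 and 2245), unadjusted p-values gave 15134 (7215 and 7919), and leaving out a library gave 6523 to 7373 (2994 to 3432, 3529 to 3957). Of 1527 sums over protein names, 1371 to 1437 were called without 1 library (761 to 798 higher, 594 to 647 lower). Of 12602 genes called the same way at all 5 times (6926 and 5676), a fold of at least 4 left 7839 (4406 and 3433) and a pseudocount of 1 left 6441 (3388 and 3053). The filters test fewer genes, and higher pseudocounts shrink the folds of low genes. Same-numbered libraries share only a number. With the replicate block 26796 genes, 8052 shifts and 1522 sums were called. No difference of a named gene changed sign under any setting run. The balance of higher and lower members turned under at least 1 setting for the abscisic acid, auxin, jasmonate, pathogenesis related, class III peroxidase, P450, heat shock, ribosomal, transposon-like, photosynthetic, xylem, WRKY and ZAT lists, and under none for the other 30 lists. CK libraries at 0 h were shallower than EWT libraries, which limits what can be said of low genes in CK.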

Other observations

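Sums over some further protein names, chosen after their values were seen, were as follows. Protein translation factor SUI1 homolog 2, named for a protein that helps ribosomes find the start codon, summed to 947, 1047, 1102 and 1111 FPKM in the CK libraries and 481, 421, 357 and 385 FPKM in the EWT libraries. The log2 difference was -1.36 ± 0.13 (SE, adjusted p = 2.9e-10), and the groups did not overlap. Nudix hydrolase 21, of a family that cleaves nucleoside diphosphate compounds, summed to 417, 438, 449 and 483 FPKM in the CK libraries and 1224, 1297, 942 and 1188 FPKM in the EWT libraries, a difference of 1.37 ± 0.17 (SE, adjusted p = 8.4e-08). Its copies were called in both directions, 5 higher and 3 lower of 16 tested. Putative germin-like protein 2-2 summed to 31.9 ± 10.8 FPKM in CK and 1023 ± 192 FPKM in EWT, nearly all of it from the copy described above. Non-symbiotic hemoglobin 2, which binds oxygen, summed to 11.7 ± 1.77 FPKM in CK and 18.1 ± 5.42 FPKM in EWT, a difference of 0.59 ± 0.18 (SE, adjusted p = 0.016) that missed the fold threshold. Ferritin-1, the iron store of plastids, was low in both cultivars, with 1.06 ± 0.596 FPKM in CK and 0.254 ± 0.201 FPKM in EWT.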
